A study of Mus musculus with 8 samples.

Results

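The genes described here are 10 members of the chemokine system, of 18193 genes measured: the chemokine receptor genes Cxcr3, Cxcr4, Cxcr2, Ccr1, Ccr2, Ccr9 and Cx3cr1 and the chemokine genes Cxcl12, Cxcl2 and Cxcl10. They were followed in LSK cells, the lineage-low, Sca1-positive and cKit-high fraction of blood-forming cells that holds haematopoietic stem cells and early progenitors, sorted by flow cytometry from C57BL/6 mice. Wild type animals gave 4 arrays, and animals carrying 1 mutant Jak2V617F allele (heterozygous) gave the other 4. Jak2V617F is a constitutively active variant of the kinase that sits on cytokine receptors, and it drives myeloproliferative neoplasms. Neither group was described as treated. The organ they were taken from, the animals' age, and how the mutant allele was introduced or switched on, are not given in the sources used here. Cxcr3 was picked because it stood higher in the mutant arrays, so its genotype difference is given as a description with no test.

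Chemokines are small secreted proteins that guide cell movement. They bind receptors that cross the membrane repeatedly and signal through heterotrimeric G proteins of the Gi class to phosphoinositide 3-kinase, phospholipase C and Rac. In bone marrow, Cxcl12 made by stromal cells acts on Cxcr4 and holds stem and progenitor cells in place. Ccr2 and Cx3cr1 mark monocytes and their progenitors, Cxcr2 draws neutrophils out of the marrow, and Cxcr3 is best known from activated T cells, natural killer cells and plasmacytoid dendritic cells.

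Cxcl2 and Cxcl10 are inducible chemokine genes, transcribed in response to NF-kB and, for Cxcl10, to interferon. Their upstream sequences are shown because these are the inducible ligands of the set, and that of Cxcr3 because it is the gene picked from this contrast. The sequences are the 250 bases before the RefSeq transcription start, in assembly GRCm38.p6, at chr5:90903649-90903898 for Cxcl2 (plus strand), chr5:92348890-92349139 for Cxcl10 (minus strand) and chrX:101734148-101734397 for Cxcr3 (minus strand). Capitals mark letters that match a searched motif.
Cxcl2: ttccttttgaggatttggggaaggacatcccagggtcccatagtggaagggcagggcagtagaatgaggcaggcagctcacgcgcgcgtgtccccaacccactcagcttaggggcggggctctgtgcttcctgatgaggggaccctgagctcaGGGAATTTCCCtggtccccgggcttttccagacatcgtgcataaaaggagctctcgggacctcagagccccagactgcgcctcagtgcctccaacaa
Cxcl10: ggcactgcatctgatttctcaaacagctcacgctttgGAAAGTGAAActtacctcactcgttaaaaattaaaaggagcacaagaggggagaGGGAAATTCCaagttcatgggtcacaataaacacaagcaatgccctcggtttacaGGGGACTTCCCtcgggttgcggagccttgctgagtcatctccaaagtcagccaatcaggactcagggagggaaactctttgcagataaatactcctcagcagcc
Cxcr3: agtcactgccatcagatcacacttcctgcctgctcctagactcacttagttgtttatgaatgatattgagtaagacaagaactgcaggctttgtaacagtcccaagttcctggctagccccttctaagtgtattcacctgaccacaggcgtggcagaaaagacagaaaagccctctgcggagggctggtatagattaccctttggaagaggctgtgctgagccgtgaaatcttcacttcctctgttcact
The motifs were searched on both strands. They were an interferon-response-like motif (GAAA, any 2 bases, GAAA), the Stat motif GAS (TTCNNNGAA) and the NF-kB consensus. The interferon-response-like motif was found in 1 of the 10 genes, Cxcl10, as GAAAGTGAAA from 213 to 204 bases upstream, and in 2.98% of 32851 upstream windows of the same length. The NF-kB consensus was found in 3 of the 10 genes, Cxcl2, Cxcl10 and Ccr1, and in 7.25% of all windows. In Cxcl2 it matched from 97 to 87 bases upstream, as GGGAATTTCC and, overlapping it by all but 1 base, GGAATTTCCC. Cxcl10 held GGGAAATTCC, and GGGGACTTCC overlapping GGGACTTCCC. The GAS letters were in the window of 0 of the 10 genes and in 7.02% of all windows. A match is a description of the letters and not of binding, and the window of Cxcr3 held none of the searched letters.

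Each gene is represented by the probe set, the array's group of probes for a transcript, with the highest mean over the 8 arrays. Values are log2 intensities, and every difference is mutant minus wild type. Median intensity per array lay between 7.06 and 7.15. Of the genes that define LSK cells, Kit lay between 12.52 and 12.82 in all arrays, and Ly6a was not analysed here. By Xist and Y-linked transcripts, 2 wild type arrays (1 and 2) and 1 mutant array (3) came from females and the other 5 from males, so sex was not balanced between the genotypes. With fewer cells of a kind or less RNA per cell, a bulk value falls alike, and these arrays cannot tell them apart. Absent transcript reads well above 0 on this scale. In female arrays Eif2s3y, a Y-chromosome gene, still gave 5.11 to 5.37, Xist gave 5.54 to 6.54 in the male arrays, while Uty and Kdm5d, also Y-linked, gave only 3.41 to 4.22 and 3.06 to 4.89 in the female arrays. The background thus differs between probe sets and is not known for the members' own. Here "near background" means a value under about 6.54, the highest of these readings, where a transcript may or may not be present and a difference may be understated.

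Cxcr3, the receptor for Cxcl9 and Cxcl10, stood 1.70-fold higher in mutant LSK cells. In wild type arrays 1 to 4 it read 6.74, 6.87, 6.93 and 7.11. The mutant arrays read 7.58, 7.82, 7.76 and 7.54. The lowest mutant array thus lay above the highest wild type array, and the values within each genotype kept close together. The means were 6.91 ± 0.15 and 7.67 ± 0.13 (SD, n = 4 each), a difference of 0.76 ± 0.10 (SE). Cxcr3 lies on the X chromosome and was read by 1 probe set alone. Among wild type arrays, the female minus male difference was -0.21. The genotype difference was 0.63 among males, 0.95 between the 1 female mutant and the 2 female wild type arrays, and 0.74 with sex in the fit.

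Cxcr3 was the 1 member of the 10 past the threshold of the limma fit (Benjamini-Hochberg adjusted p under 0.05 over all genes), a threshold that 0.165% of all genes passed, 0.104% higher and 0.0605% lower. With sex in the fit 0.33% of all genes passed, and among male arrays 0.121%. Since Cxcr3 was picked from this contrast, nothing is read from that count. It was 0 without any one of wild type arrays 1, 2 and 3 or of the 4 mutant arrays, and 1 without wild type array 4.

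**Figure D1:**
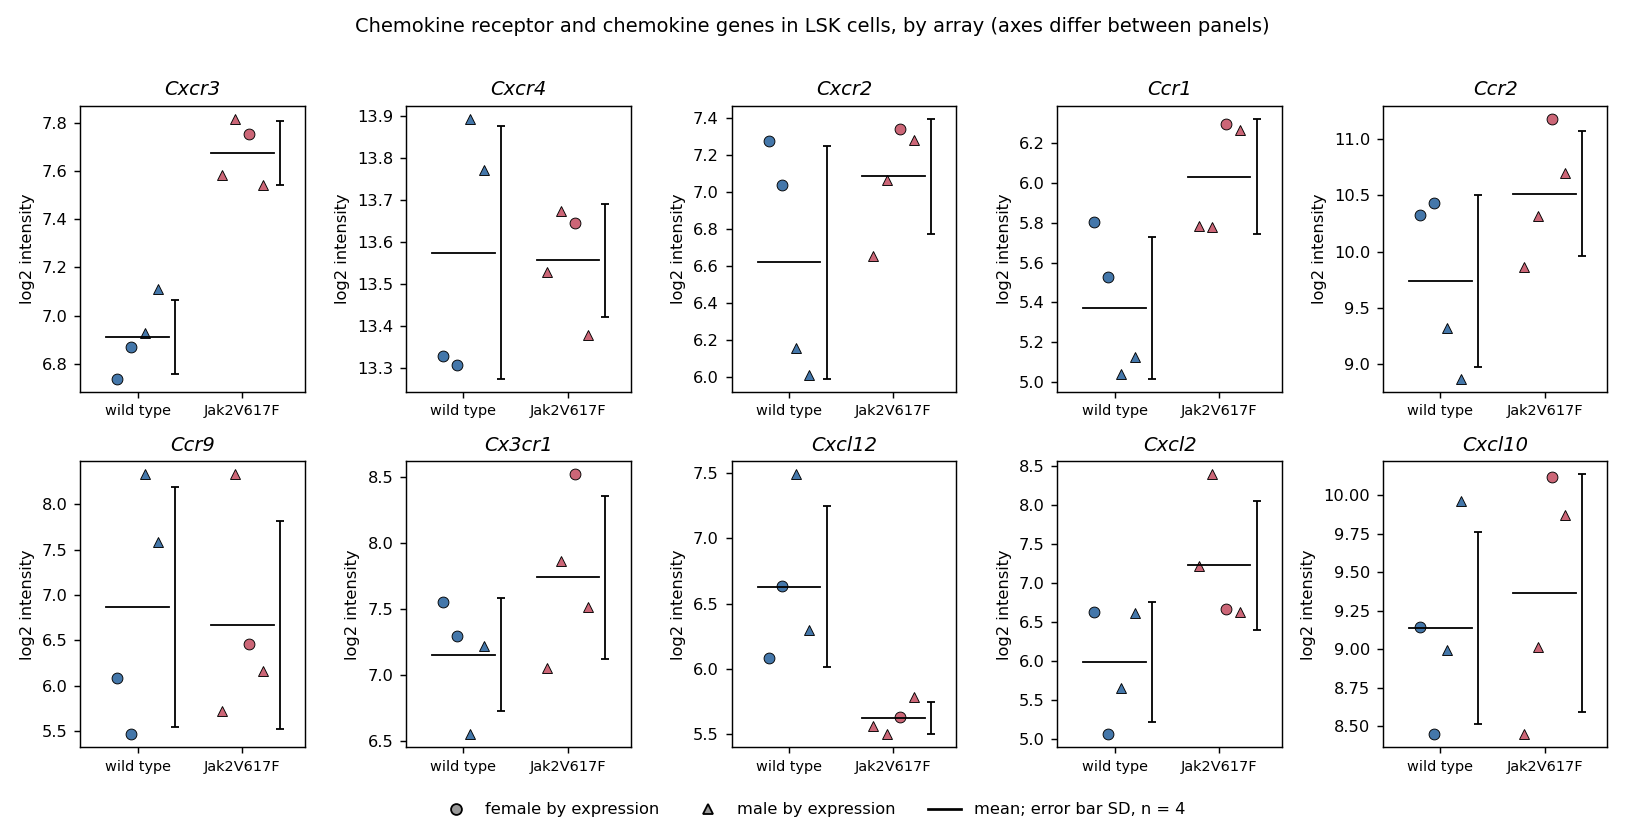
Log2 intensity of the 10 genes (y axes, scaled per panel) in the 4 wild type and 4 Jak2V617F arrays, with circles for female and triangles for male arrays, lines for means and bars for the SD. Cxcr3 separates the genotypes with a gap from 7.11 to 7.54, and Cxcl12 lies lower in all mutant arrays. Wild type values part by sex for Cxcr3, Cxcr4, Cxcr2, Ccr1, Ccr2, Ccr9 and Cx3cr1. In wild type this split is also arrays 1 and 2 against 3 and 4, so sex cannot be told from replicate order.

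Markers of T cells and natural killer cells, which carry Cxcr3, were measured for 8 of 11 listed. Of these 5 lay higher and 3 lower in mutant arrays, 0 were called by limma and 3 had an unadjusted p under 0.05. Over all genes, 62.6% lay above 0 and 17.2% had such a p. Their mean log2 level ranged from 6.91 to 7.16 in wild type and from 6.997 to 7.353 in mutant arrays. Cd3e, a subunit of the T cell receptor complex, differed by 0.19 ± 0.15 (SE), Cd3d by 0.52, Cd8a by 0.25 and Cd4 by -0.45. Of 8 plasmacytoid dendritic cell markers 7 lay higher in mutant arrays, with a median difference of 0.19, 0 called by limma and 1, Bst2, at an unadjusted p under 0.05. Bst2, an interferon-induced surface protein, differed by 0.31, the transcription factor gene Irf8 by 0.55 and Cox6a2 by 0.43, while Siglech, a lectin of these cells, differed by 0.15 ± 0.13 (SE). The mean level of the 8 listed, Ccr9 among them, ran from 8.50 to 8.87 in wild type and from 8.63 to 9.14 in mutant arrays. The part of such cells in the Cxcr3 difference was not tested.

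The 3 ligands of Cxcr3 differed among themselves, and none passed the test. Cxcl10 read 9.14, 8.45, 8.99 and 9.96 in wild type and 8.45, 9.01, 10.12 and 9.87 in mutant arrays 1 to 4. The ranges overlapped almost completely, with mutant array 1 as low as the lowest wild type array. The difference was 0.23 ± 0.41 (SE; limma adjusted p = 0.792), and it was -0.37 among male arrays, -0.0032 with wild type array 2 left out and -0.026 with mutant array 3 left out. Cxcl9, an interferon-gamma-induced ligand of the same receptor, read 6.32 to 6.60 in wild type arrays, and 7.25, 7.30 and 7.28 in mutant arrays 2 to 4, with mutant array 1 at 6.56 inside the wild type range. It differed by 0.65 ± 0.16 (SE; limma adjusted p = 0.136), and without mutant array 1 by 0.83 (limma adjusted p = 0.0196). Its other probe set, near background, differed by 0.23. Cxcl11 differed by -0.06 ± 0.15 (SE), with means of 6.00 and 5.94 that lay near background.

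The 5 genes whose values over the 8 arrays, centred on each gene's mean, were most like those of Cxcr3 were Tmem150b, D730005E14Rik, Cd163, Adi1 and Mocs3. Their root mean square difference from Cxcr3 ran from 0.095 for Tmem150b to 0.12 for Mocs3 on the log2 scale. Cd163, the haemoglobin scavenger receptor of macrophages, read 8.69, 8.81, 8.94 and 9.09 in wild type and 9.32, 9.56, 9.67 and 9.58 in mutant arrays. As with Cxcr3, wild type array 1 was lowest and wild type array 4 highest among the wild type arrays. The likeness was chosen from these arrays, so the differences of these genes, 0.60 to 0.75, follow from the choice. Other probe sets of Adi1 disagreed: 1438758_at differed by 0.77 and 1449076_x_at by -0.46, each with no overlap between the genotypes. With its probe sets averaged, Adi1 differed by 0.31. The other probe set of Mocs3 differed by 0.27.

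Cxcr4, the receptor that retains stem cells in the marrow, was well above background in both genotypes and did not pass the test. It read 13.33, 13.31, 13.89 and 13.77 in wild type arrays 1 to 4. The mutant arrays read 13.53, 13.67, 13.64 and 13.38, all of them inside the wild type range. The means of 13.57 ± 0.30 and 13.56 ± 0.13 (SD, n = 4 each) differed by -0.02 ± 0.15 (SE; limma adjusted p = 0.96), and the sign turned with median centring (0.026). Among wild type arrays, the female minus male difference was -0.51. The genotype difference was -0.30 among male arrays (limma adjusted p = 0.274) and 0.33 between the female arrays. Cxcr4 thus had opposite signs in the sexes. The interaction of genotype and sex, called for 0.0495% of all genes, was not called for Cxcr4 (limma adjusted p = 0.333).

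Cxcl12, the ligand of Cxcr4, lay lower in every mutant array but was not called. Wild type arrays 1 to 4 read 6.08, 6.64, 7.49 and 6.30. The mutant arrays read 5.56, 5.50, 5.63 and 5.78, a narrow band near background. The means were 6.63 ± 0.62 and 5.62 ± 0.12 (SD, n = 4 each), a difference of -1.01 ± 0.26 (SE; limma adjusted p = 0.139) or 2.02-fold lower. The sign was the same among males (-1.28) and between females (-0.73).

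The other 2 probe sets of Cxcl12 disagreed with each other. Probe set 1417574_at read 6.04, 5.95, 6.59 and 6.07 in wild type and 5.27, 5.20, 5.19 and 5.49 in mutant arrays, again with no overlap. It differed by -0.87 ± 0.14 (SE; limma adjusted p = 0.0526 over all probe sets, of which 0.244% passed). With sex in that fit it differed by -0.93 (limma adjusted p = 0.0354). The share of all probe sets that passed with sex in the fit was not counted, so nothing is read from that pass. Probe set 1439084_at pointed the opposite way, from 5.66 ± 0.13 to 6.01 ± 0.14 (SD, n = 4 each), by 0.35 (limma adjusted p = 0.154 over all probe sets). Whether it reads another transcript form was not tested. With all 3 averaged, the difference was -0.51 and the limma adjusted p was 0.135.

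Stromal cells are the main source of Cxcl12, and their markers lay on both sides of 0. Of 10 measured, 7 lay higher and 3 lower in the mutant arrays, with 0 called by limma, 2 at an unadjusted p under 0.05 (all genes: 62.6% above 0 and 17.2% at such a p), and a mean level of 6.03 to 6.39 in wild type and 6.11 to 6.30 in mutant arrays. For 5 of them, Col3a1, Lepr, Kitl, Lum and Dcn, both genotype means were at or below 5.37, the highest reading of Y-linked transcript in female arrays. Pdgfrb, a growth factor receptor of stromal cells, lay higher in the mutant arrays by 0.46 and the adhesion gene Vcam1 by 0.53 (0.23 without wild type array 4). Col1a2, a collagen chain, differed by -1.72: it read 9.83 and 9.498 in wild type arrays 1 and 2, 6.74 and 6.85 in wild type arrays 3 and 4, and 5.86 to 7.17 in the mutant arrays. Wild type array 3, highest for Cxcl12, read 6.74 for Col1a2. Col1a2 is 1 gene of the list and was not taken as a measure of stromal RNA. The part of stromal RNA in the Cxcl12 difference was not tested.

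Ccr2, the monocyte receptor for Ccl2, was higher on average in mutant arrays, but its wild type values spread over more than the genotype difference. It read 10.32, 10.43, 9.32 and 8.87 in wild type arrays 1 to 4. The mutant arrays read 9.87, 10.32, 11.18 and 10.70. The 2 female wild type arrays lay in the mutant range and the 2 male ones below it. The means of 9.74 ± 0.76 and 10.52 ± 0.56 (SD, n = 4 each) differed by 0.78 ± 0.39 (SE; limma adjusted p = 0.337), and by 0.49 without wild type array 4. Compared within sex, the mutant was higher by 1.20 among males and by 0.80 between females. With sex in the fit the difference was 1.06 ± 0.19 (SE; limma adjusted p = 0.0717), and females were 1.11 higher than males (limma adjusted p = 0.169). Neither term was called.

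All 4 probe sets of Ccr2 gave the same picture. The other 3 differed by 0.92 (1421187_at), 0.88 (1421188_at) and 0.92 (1460067_at). On each of the 4, mutant array 3 was highest and wild type array 4 lowest. With all probe sets tested and sex in the fit, 1421187_at passed the threshold (1.15, limma adjusted p = 0.0305). The other 3 did not (limma adjusted p = 0.0541 to 0.0964). As for Cxcl12, the share of all probe sets that passed in this fit was not counted, and nothing is read from the pass.

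Ccr1, a receptor of myeloid cells for Ccl3, Ccl5 and Ccl9, differed in the same direction from a level near background. Wild type arrays 1 to 4 read 5.80, 5.53, 5.04 and 5.12, and mutant arrays 5.78, 5.78, 6.30 and 6.27. Mutant arrays 3 and 4 were clear of every wild type array, and mutant arrays 1 and 2 lay just under wild type array 1. The difference was 0.66 ± 0.20 (SE; limma adjusted p = 0.184) and with sex in the fit 0.78 (limma adjusted p = 0.0633). Over all probe sets with sex in the fit, the same probe set was just past the threshold (limma adjusted p = 0.0499). Here too the share of all probe sets that passed was not counted, and nothing is read from the pass. The other probe set, 1419610_at, read no higher than 4.57 on any array and differed by 0.50, with no overlap between the genotypes.

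Cx3cr1, the receptor for fractalkine on monocytes, read 7.55, 7.29, 6.55 and 7.22 in wild type and 7.05, 7.87, 8.52 and 7.52 in mutant arrays 1 to 4. Mutant array 3, the female one, was again highest, and mutant array 1 fell among the wild type arrays. The difference was 0.59 ± 0.31 (SE; limma adjusted p = 0.359), and it was 0.33 when mutant array 3 was left out and 0.38 when wild type array 3 was. The second probe set, near background, differed by 0.17.

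Cxcr2, the neutrophil receptor for Cxcl2 and related chemokines, read 7.27, 7.03, 6.16 and 6.01 in wild type and 6.66, 7.06, 7.34 and 7.28 in mutant arrays 1 to 4. The wild type arrays parted by sex by 1.07, and the female ones reached the mutant level. The male wild type arrays lay near background, so differences from them may be understated. The difference over all arrays was 0.46 ± 0.29 (SE; limma adjusted p = 0.425), and 0.26 without wild type array 4. Among male arrays it was 0.91 (limma adjusted p = 0.153), between female arrays 0.18, and with sex in the fit 0.65 (limma adjusted p = 0.154). Ccr2, Cxcr2, Ccr1 and Cx3cr1 were thus higher in the female than in the male arrays, by 0.49 to 1.11 with genotype in the fit. None of these sex differences passed the threshold (limma adjusted p = 0.169 to 0.441), which 0.0605% of all genes did. The sex term rests on 3 female arrays, and sex was read from the arrays themselves.

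**Figure D2:**
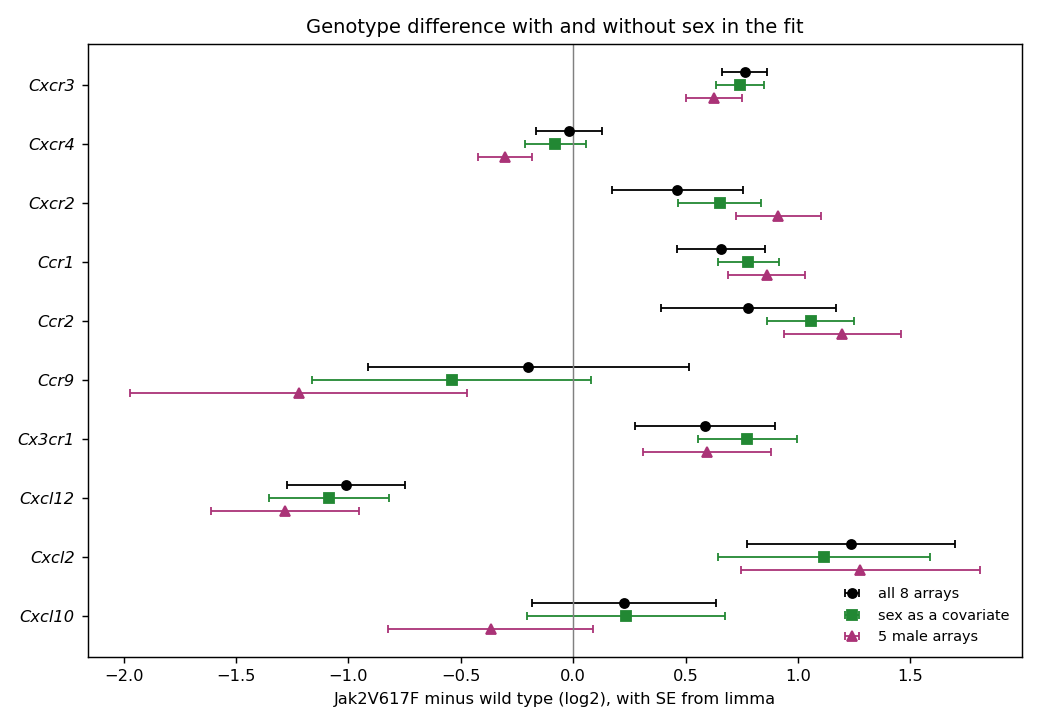
Difference between Jak2V617F and wild type arrays (x axis, log2, bars SE from limma) for the 10 genes over all 8 arrays, with sex as a covariate, and among the 5 male arrays. Ccr2 moves from 0.78 to 1.06 and 1.20 and Cxcr2 from 0.46 to 0.65 and 0.91, while Cxcr3 stays between 0.63 and 0.76.

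Markers of monocytes and granulocytes lay mostly higher in the mutant arrays too. Of 8 measured monocyte and macrophage markers 7 lay higher in the mutant arrays, with a median difference of 0.41, 0 called by limma and 3 at an unadjusted p under 0.05, against 62.6% above 0 and 17.2% at such a p over all genes. The arrays did not overlap for 2, the lysosomal gene Cd68 (0.44) and the macrophage surface gene Adgre1 (0.62, and 0.39 without mutant array 3), both higher, as were 6.82% of all genes. The list's mean level was 8.226 to 9.004 in wild type and 8.46 to 9.48 in mutant arrays, highest in mutant array 3 and lowest in wild type array 4, as for Ccr2. Csf1r, the receptor for the monocyte growth factor, read 12.30, 11.99, 10.91 and 11.09 in wild type and 11.58, 12.31, 12.76 and 12.23 in mutant arrays. Its female wild type arrays were the higher ones, as for Ccr2 and Cxcr2. Cd14 went the other way, by -0.99. Granulocyte markers had 7 of 7 measured above 0 and a median difference of 0.88, with the granule genes Ltf at 1.41, Mmp8 at 1.35 and Lcn2 at 1.09. Their mean level was 10.61 to 11.83 in wild type and 11.33 to 12.65 in mutant arrays, with the female mutant array 3 lowest among the mutants, unlike Cxcr2. Ltf was called among male arrays (1.68, limma adjusted p = 0.0455). None of the 7 was called by limma over all arrays, and 3 had an unadjusted p under 0.05, beside the same 62.6% and 17.2% of all genes. The part of maturing myeloid cells in the receptor differences was not tested.

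Of the ligands described here, all but Cx3cl1 lay higher, where 62.6% of all genes did, and none passed the threshold over all arrays. Ccl3, Ccl5, Ccl9 and Cx3cl1 were named after their values were seen. Of other measured chemokines, Ccl7 differed by 0.06, Ccl12 by 0.01, and Cxcl1 and Cxcl5 each by 0.12. Ccl2, the main ligand of Ccr2, read 6.39, 6.10, 6.13 and 6.10 in wild type and 6.66, 6.62, 6.73 and 6.65 in mutant arrays. The groups did not overlap, but the wild type levels were near background. The difference was 0.48 ± 0.083 (SE; limma adjusted p = 0.0652), and without wild type array 1, the highest of its group, it was 0.55 and passed (limma adjusted p = 0.0375). Of the ligands of Ccr1, Ccl3 differed by 0.49, Ccl5 by 0.11 and Ccl9 by 0.37, each with overlapping arrays. Without single arrays, Ccl3 ranged from 0.13 (mutant array 2) to 0.87 (wild type array 1), and Ccl5 from -0.078 (wild type array 3) to 0.32 (mutant array 1). Cx3cl1, the ligand of Cx3cr1, differed by -0.28 ± 0.16 (SE; limma adjusted p = 0.392). Its other probe sets, near background, disagreed in sign: 0.08 (1415804_at), 0.21 (1421610_at) and -0.14 (1441884_x_at).

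Cxcl2, a neutrophil attractant that acts on Cxcr2, had the largest difference of the 10 genes and also a large spread. It read 6.62, 5.06, 5.65 and 6.61 in wild type arrays 1 to 4. The mutant arrays read 7.21, 8.39, 6.66 and 6.63. All mutant arrays lay above all wild type arrays, though only by the step from 6.62 to 6.63. The means were 5.98 ± 0.77 and 7.22 ± 0.82 (SD, n = 4 each), a difference of 1.24 ± 0.46 (SE; limma adjusted p = 0.236) or 2.36-fold, from a wild type mean near background. Without mutant array 2 it was 0.85. Cxcl2 and Cxcl10, whose upstream windows both hold NF-kB letters, had different array orders: mutant array 2 was highest for Cxcl2 and mutant array 3 for Cxcl10.

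Ccr9, a homing receptor for Ccl25 on lymphoid-primed progenitors and plasmacytoid dendritic cells, varied more between arrays of a genotype than between genotypes. Wild type arrays 1 to 4 read 6.09, 5.47, 8.33 and 7.59. The mutant arrays read 5.72, 8.33, 6.46 and 6.17. Wild type arrays 3 and 4 and mutant array 2, all male, were high, and the other 5 arrays were near background. The SDs were 1.32 and 1.15 and the difference -0.20 ± 0.71 (SE; limma adjusted p = 0.903), with the sign turning without wild type array 3 (0.29), wild type array 4 (0.041) or mutant array 1 (0.12). Probe sets 1427419_x_at and 1421919_a_at showed the same 3 high arrays, at 6.93 to 7.08 and 6.06 to 6.33, and the remaining 2 probe sets read 5.83 or less. Siglech lay between 6.71 and 7.29 over the 8 arrays and was lowest in wild type array 3, where Ccr9 was high. The mean of the 8 plasmacytoid dendritic cell markers, Ccr9 among them, was 8.81 and 8.87 in wild type arrays 3 and 4. It was 9.14 in mutant array 2, and ran from 8.50 to 8.98 in the other arrays. The values of Ccr9 enter this mean, so it is no separate measure to set beside Ccr9, and nothing is read from a likeness. The part of such cells in the Ccr9 values was not tested.

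**Figure D3:**
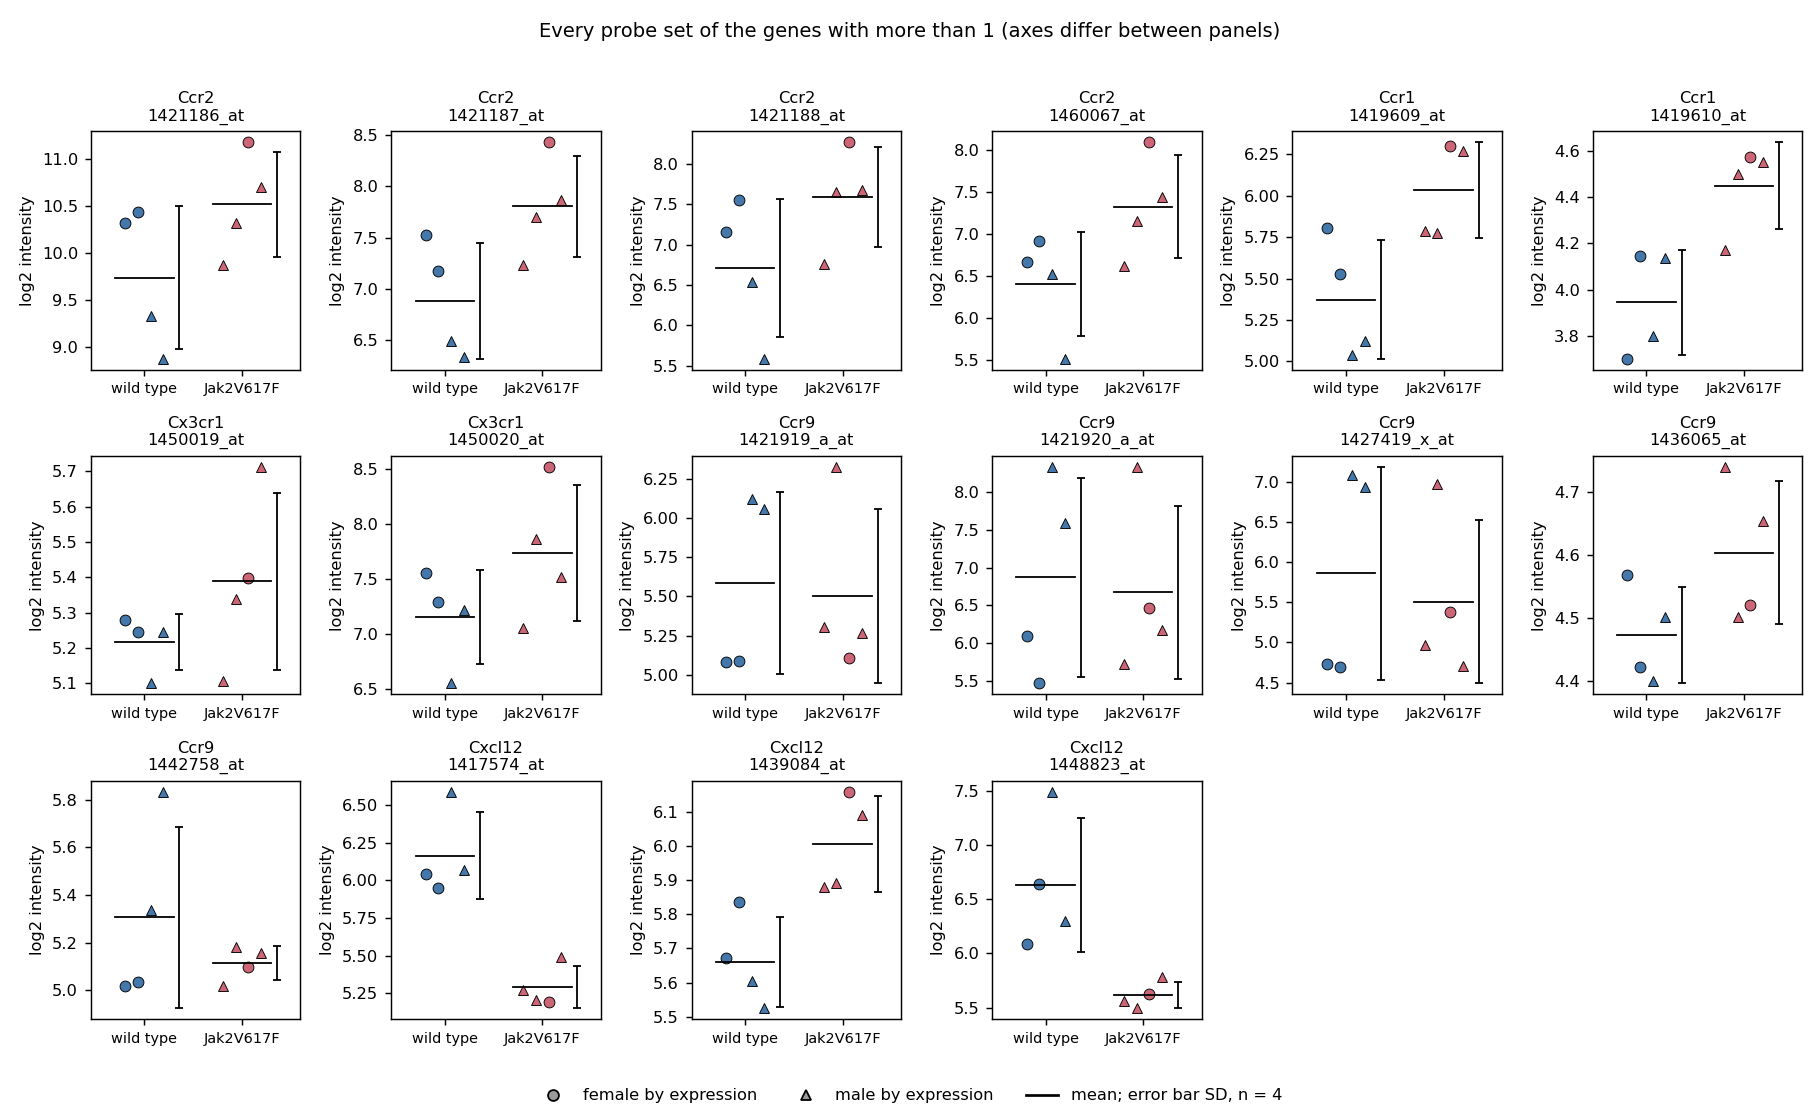
Log2 intensity (y axes, scaled per panel) of every probe set of the 5 genes with more than 1, in 4 wild type and 4 Jak2V617F arrays, with circles for female and triangles for male arrays, lines for means and bars for the SD. The 4 Ccr2 panels keep nearly the same array pattern, and Cxcl12 has 2 probe sets lower and 1 higher in the mutant arrays.

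Its ligand Ccl25, made in thymus and gut, was measured well above background. It read 9.06, 8.67, 8.98 and 9.55 in wild type and 9.96, 9.67, 9.57 and 9.82 in mutant arrays. The mutant arrays were all higher, with a step of 9.55 to 9.57 between the groups. The difference was 0.69 ± 0.17 (SE; limma adjusted p = 0.137), and its other probe set differed by 0.39 with overlapping arrays.

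Ccr9, Ccr1 and Ccr2 lie among other receptor genes on chromosome 9, in the order Ccr9, Cxcr6, Xcr1, Ccr1, Ccr1l1, Ccr3 and Ccr2, with 1 other protein-coding gene between Ccr9 and Cxcr6. Cx3cr1 lies further off, next to Ccr8. The neighbours Cxcr6, Xcr1, Ccr1l1 and Ccr3 read near background in both genotypes, with means between 3.67 and 5.37. Ccr1 and Ccr2 lay higher on average in the mutant arrays, while the difference of Ccr9 did not keep its sign.

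Over the 10 genes, 7 differences were above 0 and 3 below, with a median of 0.52 against 0.05 over all genes, of which 62.6% lay above 0. The arrays of the genotypes did not overlap for 3 of them: Cxcr3 and Cxcl2 lay higher, as did 6.82% of all genes, and Cxcl12 lay lower, as did 3.33%. An unadjusted p under 0.05 was found for 4, of which 3 lay higher, against 11.9% of all genes, and 1 lower, against 5.23%. The 10 were named with this contrast known, so these are descriptions.

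Among further chemokine receptors, 15 of 17 listed were measured, and 8 of these had both means at or below 5.37. None was called by limma, 4 had an unadjusted p under 0.05, all higher, against 11.9% of all genes, and the median difference was 0.16. Ccr7, a receptor that takes cells to lymph nodes, read 6.56, 6.08, 7.12 and 7.67 in wild type and 7.56, 7.89, 7.14 and 7.51 in mutant arrays, a difference of 0.67 ± 0.31 (SE; limma adjusted p = 0.313), and 0.41 without wild type array 2. Its male wild type arrays were the higher ones, the reverse of Ccr2. The others with the smallest p, Ccr8 (0.31), Ccr4 (0.21), Xcr1 (0.33) and Ccr6 (0.36), lay near background throughout.

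Of further chemokines, 32 of 35 were measured, and 11 of these had both means at or below 5.37. So had 4215 of all 18193 genes. Of the 32, 29 had a difference above 0, against 62.6% of all genes, and the median was 0.19. None was called by limma, against 0.165% of all genes, while 7 had an unadjusted p under 0.05, all higher, and the arrays did not overlap for 4, all higher, against 6.82% of all genes (10.1% in either direction). An unadjusted p under 0.05 was found for 17.2% of all genes and for 11 of these 47 further receptors and chemokines. The trended robust prior, array weights and sex as a covariate also called 0 of the 47. Over all probe sets with sex in the fit, as given above for Ccr1, Ccr2 and Cxcl12, Ccl2 was just past the threshold (0.51, limma adjusted p = 0.0488). Beside Ccl2, Cxcl9 and Ccl25, those with the smallest p were Ccl24 (0.23) and Ccl17 (0.27), attractants of eosinophils and of T cells, both with no overlap between genotypes and levels no higher than 7.09 on any array.

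**Figure D4:**
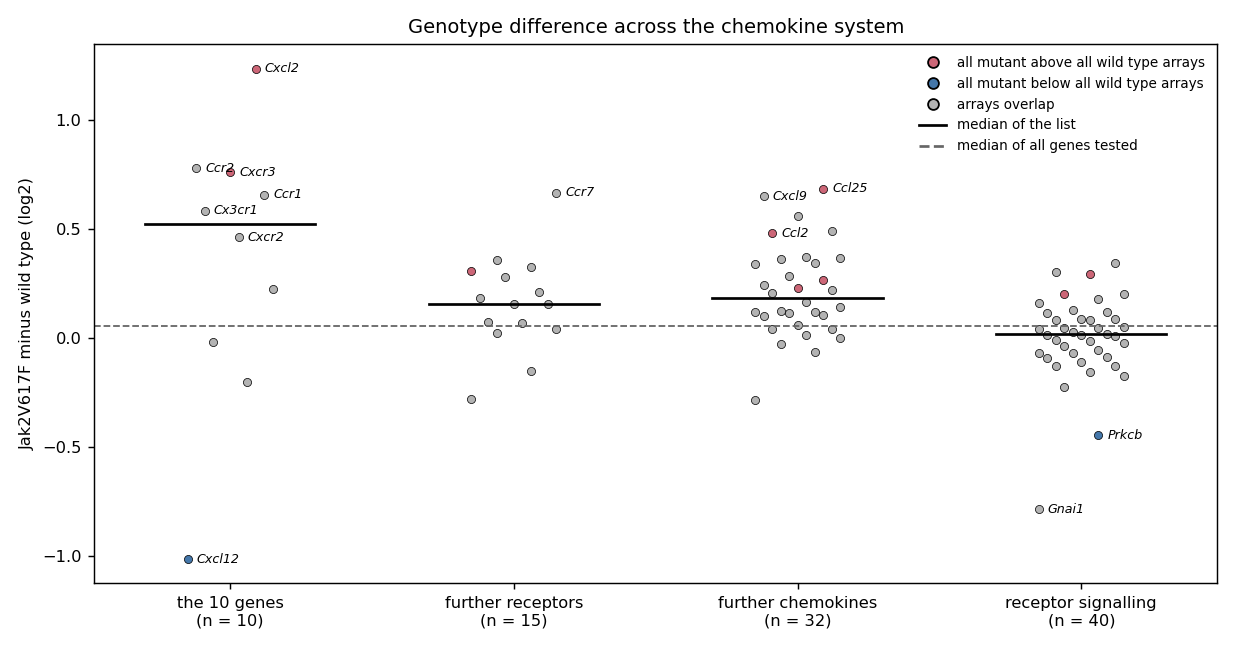
Difference between Jak2V617F and wild type arrays (y axis, log2) for each of the 10 genes, 15 further receptors, 32 further chemokines and 40 receptor signalling genes, coloured by whether the arrays of the genotypes overlap, with list medians as lines. Further receptors and chemokines centre at 0.16 and 0.19, above the median of all genes at 0.05 (dashed), and the signalling genes at 0.02.

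Genes that carry the signal from chemokine receptors were measured for 40 of 42 listed. Their median difference was 0.02, with 23 above and 17 below 0. None was called by limma, and 5 had an unadjusted p under 0.05, 3 higher and 2 lower, against 17.2% of all genes (11.9% higher and 5.23% lower). Prkcb, a protein kinase C of blood cells, read 9.84, 9.74, 9.59 and 9.63 in wild type and 9.35, 9.39, 9.24 and 9.05 in mutant arrays, with no overlap (-0.44 ± 0.095, SE; limma adjusted p = 0.101). Gnai1, a Gi alpha subunit, differed by -0.78 ± 0.33 (SE; limma adjusted p = 0.28), with mutant array 1 at 7.30 inside the wild type range and the other mutant arrays below it. Other probe sets of Gnai1, near background, differed by -0.26 (1434440_at) and 0.03 (1427510_at). Rgs10 and Rgs16, which shorten G protein signalling, differed by 0.34 and 0.30, and Elmo1, which with Dock2 activates Rac, by 0.18. On these probe sets the mutant arrays lay above the wild type arrays for Rgs16 (7.36 to 7.46 against 6.86 to 7.34), and overlapped for Rgs10 and Elmo1. Other probe sets of Elmo1 differed by 0.48 (1446610_at, no overlap) and 0.35 (1450208_a_at, overlapping). Those of Rgs16, near background, differed by 0.25 (1426037_a_at, no overlap) and -0.01 (1455265_a_at, overlapping).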

How the data were processed

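Sorted LSK cells gave 8 arrays, each labelled with a mouse genotype and a replicate number. Per the labels' protocols, RNA was purified (Qiagen RNeasy Micro), linearly amplified with NuGEN reagents and put on Affymetrix mouse expression arrays. What the authors deposited are log2 intensities. The submitters' processing notes name RMA, affy and R 2.11.0. That the scale is log2 was judged from the range of values. A chip definition file and scan dates: not given in the sources used here. Precision is limited by having 4 arrays a group.

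Of 45101 probe sets, 64 were controls, 34945 had 1 gene symbol in the platform annotation, 932 had several and 9160 had none. The 18193 genes each took the probe set of highest mean. Genotype came from the labels, which give a mouse genotype and a replicate number. Replicates were taken as separate mice, which the titles do not state. Limma 3.58.1 (lmFit, eBayes) in R 4.3.3 compared mutant and wild type two-sided over all genes, with Benjamini-Hochberg adjustment at 0.05. It was tested on simulated data. Sex was read from Xist against Y-linked genes.

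The 10 members and the gene lists were chosen with earlier results of these data known. Named were the members, up to 5 genes per chemokine or signalling list and 3 per marker list by smallest p, and the 5 genes closest to Cxcr3. Cxcl11, Ccl3, Ccl5, Ccl9, Cx3cl1, Csf1r, Siglech, Cd3e, Kit, the receptor genes of the chromosome 9 cluster, and the stromal genes at background were named after their values were seen, and the differences within and between sexes and the fit of all probe sets with sex were likewise added after seeing the data. Listed genes without a probe set of 1 symbol are not analysed here. The B cell, mast cell and endothelial lists are given under other observations. Upstream sequences were taken from RefSeq (GRCm38.p6), which held all 10 members.

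The alternatives tried comprised median centring, a block for replicate number, leaving out genes dimmer than 7.11, the mean of probe sets, leaving out _s_at, _x_at and _a_at probe sets, every probe set fitted, a robust prior with a trend, array weights, sex as a covariate, male arrays alone, an adjusted p of 0.10 and leaving out each array.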

Additional observations from a re-analysis of the deposited data

Results flagged for a closer look

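Of 130 groups of 4 arrays of the named genes, 6 had an array whose gap to its neighbour took up more of the group's range than Dixon's 95% limit allows. Chance flags about 5% of such groups. They were Ccl2 in wild type array 1 (6.39, next 6.13), Cxcl9 in mutant array 1 (6.56, next 7.25), Tmem150b in wild type array 4 (7.96, next 7.76) and D730005E14Rik in mutant array 2 (7.83, next 7.71). The other two were the granule gene Ltf in mutant array 3 (10.06, next 11.87) and the mast cell protease gene Cpa3 in mutant array 2 (11.68, next 11.25). Of the 10 members, Cxcr3 and the other 9 had no such array. The genotype by sex interaction was called by limma for 0.0495% of all genes, and for none of the named genes.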

How the results depend on the processing

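Genes called numbered 30, and 8 with the replicate number as a block, 47 with median centring, 49 with the mean of probe sets, 110 over all probe sets (44 higher and 66 lower, against 19 and 11), 75 with a robust trended prior, 60 with the sex covariate, 199 at an adjusted p of 0.10, and 13 to 40 without single arrays. Members called numbered 1, and 0 with the replicate block or among male arrays and 0 to 1 without single arrays. The replicate numbers are names: deviations of same-numbered arrays correlated by -0.02, -0.22, -0.06 and 0.10. Of further chemokine genes, 1 was called at an adjusted p of 0.10 and 0 to 1 without single arrays, and of signalling genes 0 throughout. Cxcr3, picked for its rise, ranged from 0.63 to 0.83 under its 18 alternatives. Its mutant arrays all lay above its wild type arrays, so leaving arrays out could not turn the sign. Nothing is read from that sign. Signs turned for Cxcr4 with median centring (0.026) and without single arrays (-0.11 to 0.088). Without single arrays they also turned for Ccr9 (-0.75 to 0.29), Cxcl10 (-0.026 to 0.53), Cxcl11 (-0.20 to 0.036) and Ccl5 (-0.078 to 0.32), and among male arrays for Cxcl10 (-0.37) and Cxcl11 (0.020). The causes were not tested. Signal near background may limit Cxcl12, Ccr1, Ccl2, the wild type values of Cxcl2, the male wild type values of Cxcr2, and many further chemokines.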

Other observations

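Of lists not described above, B cell markers had 3 of 6 measured genes above 0 and a median difference of -0.0068, with Pax5, Ebf1 and Ms4a1 at 0.07, 0.12 and -0.18, and 0 called by limma (0 at an unadjusted p under 0.05). Mast cell and basophil genes, whose cells carry several of these receptors, had 5 of 6 above 0 and a median of 0.47, with the protease genes Cpa3 (0.55) and Mcpt8 (0.58) and the transcription factor gene Gata1 (0.50), 0 called and 4 at an unadjusted p under 0.05. Endothelial markers had 6 of 7 above 0, with Plvap at 0.43 (0.28 without mutant array 3) and Cdh5 at 0.28, 0 called over all arrays and 5 at an unadjusted p under 0.05 (4 higher and 1 lower), while the sialomucin gene Emcn stood at -0.84 (limma adjusted p = 0.0652, and 0.0369 with sex in the fit, which calls it). Of the surface genes that subdivide LSK cells, Cd48 differed by 0.35, Slamf1 by 0.72 and Cd34 by -0.12, none called. Over all genes, 62.6% lay above 0 and 17.2% had an unadjusted p under 0.05.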
